A study of Drosophila melanogaster with 6 samples.

Results

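The genes described here are hh, ptc, smo, ci and en of the Hedgehog (HH) pathway and dpp, gbb, tkv, dally and Mad of the Dpp pathway, 10 of the 17684 genes annotated on chromosomes 2L, 2R, 3L, 3R, 4 and X. They were chosen by name, and every deposited peak that shared at least 1 bp with the annotated span of a gene, extended by 1000 bp on both sides, was counted at that gene. This gave 45 of the 22108 CAP-D3 peaks and 10 of the 3915 IgG peaks. CAP-D3 is a subunit of Condensin II, a complex that organizes chromatin, and its binding was mapped by chromatin immunoprecipitation with sequencing (ChIP-seq) in untreated S2R+ cells, an embryonic Drosophila cell line labelled as Oregon R in strain. The labels give 2 samples for CAP-D3 (antibody YZ384), 2 for normal rabbit IgG, which recognizes no chromatin protein in particular, and 2 for input chromatin. All 6 came from the same kind of cells, cut with micrococcal nuclease, without any other genotype or agent. The paper names S2 cells and more experiments than the labels do.

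In the developing wing, HH is secreted by posterior cells, which express Engrailed (the product of en), and is received by anterior cells along the compartment boundary. Patched (PTC) binds HH and, when free of ligand, keeps Smoothened (SMO) inactive, and SMO in turn controls Cubitus interruptus (CI), the transcription factor of the pathway. One target of the pathway in the wing is dpp, which encodes a BMP ligand. DPP and the related ligand Glass bottom boat (GBB) bind the type I receptor Thickveins (TKV), whose kinase phosphorylates the transcription factor MAD, and the heparan sulfate proteoglycan DALLY shapes the spread of the ligands. Both pathways position the veins of the wing.

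Each antibody has 1 deposited list of peaks, called with MACS against input, without values for single experiments. There was therefore no replicate error for any number below, and no test was made. Every peak carries a score, which is −log10 of the MACS p-value or q-value. The lowest score in either list was 2, which is a probability of 0.01. The depth of the libraries is unknown, so neither the numbers nor the scores of peaks can be compared between the antibodies as amounts of binding. The median score of the CAP-D3 list was 9.16, and 41.9% of its peaks had a score of at least 10, which is used below to mark the stronger peaks. The paper counts fewer CAP-D3 binding sites than this list holds, at a much stricter probability than that of the lowest score. Weaker peaks described below may therefore not be among the binding sites of the paper. Strand and exons were not used, so positions are given from the end of a gene with the lower coordinate, and whether a peak was exonic or intronic was not analysed here. Peak coordinates are those of the files, whose genome build is not named in the sources used here.

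CAP-D3 peaks lay at 9 of the 10 genes, the exception being ci. In comparison, 55.7% of all annotated genes had at least 1 CAP-D3 peak in the same kind of window. The 10 genes are long, with a median span of 13.7 kb against 1.71 kb for all genes, and longer windows hold more peaks. The number of peaks ranged from 0 at ci to 11 at tkv. Genes with the stronger peaks, with a score of at least 10, numbered 7 of 10 against 33.1% of all genes, and these were hh, ptc, dpp, gbb, tkv, dally and Mad. One gene, ptc, had a peak with a score of at least 20, against 2.69% of all genes. IgG peaks lay at 4 of the 10 genes, hh, ptc, dpp and tkv, against 14.2% of all genes. At 1 of them, dpp, an IgG peak reached a score of 10, as at 3.54% of all genes. Of the 200 genes nearest in length to hh, ptc, dpp and tkv, 35%, 39%, 51.5% and 61%, respectively, had at least 1 IgG peak. For the other genes this share ranged from 9.5% at gbb to 61.5% at dally.

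Per length of window, the 10 genes held 1.95 CAP-D3 peaks per 10 kb, and the 6 chromosomes together held 1.65. Here and below, values for chromosomes cover all sequence up to the last gene or peak, also between genes. Values for genes cover their windows alone, so the densities are not of like sequence. The value for the 6 chromosomes includes X and chromosome 4, which held only 0.434 and 0.190. All the genes but ci lie on 2L, 2R, 3L or 3R, which held 1.74, 2.03, 1.73 and 2.16. The Hedgehog genes had 15 CAP-D3 peaks in 57.4 kb of windows and the Dpp genes 30 in 173 kb, or 2.61 and 1.74 peaks per 10 kb. Single genes weigh heavily in both values. The window of dally took up 65.7 kb with 0.913 peaks per 10 kb, and hh held 7 of the 15 Hedgehog peaks. The genes tkv, dpp and hh together accounted for 28 of the 45 CAP-D3 peaks and for 9 of the 10 IgG peaks. Of the 45 CAP-D3 peaks, 42 lay wholly inside the span of the gene, and 3 lay outside it within the added 1000 bp.

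**Figure D1:**
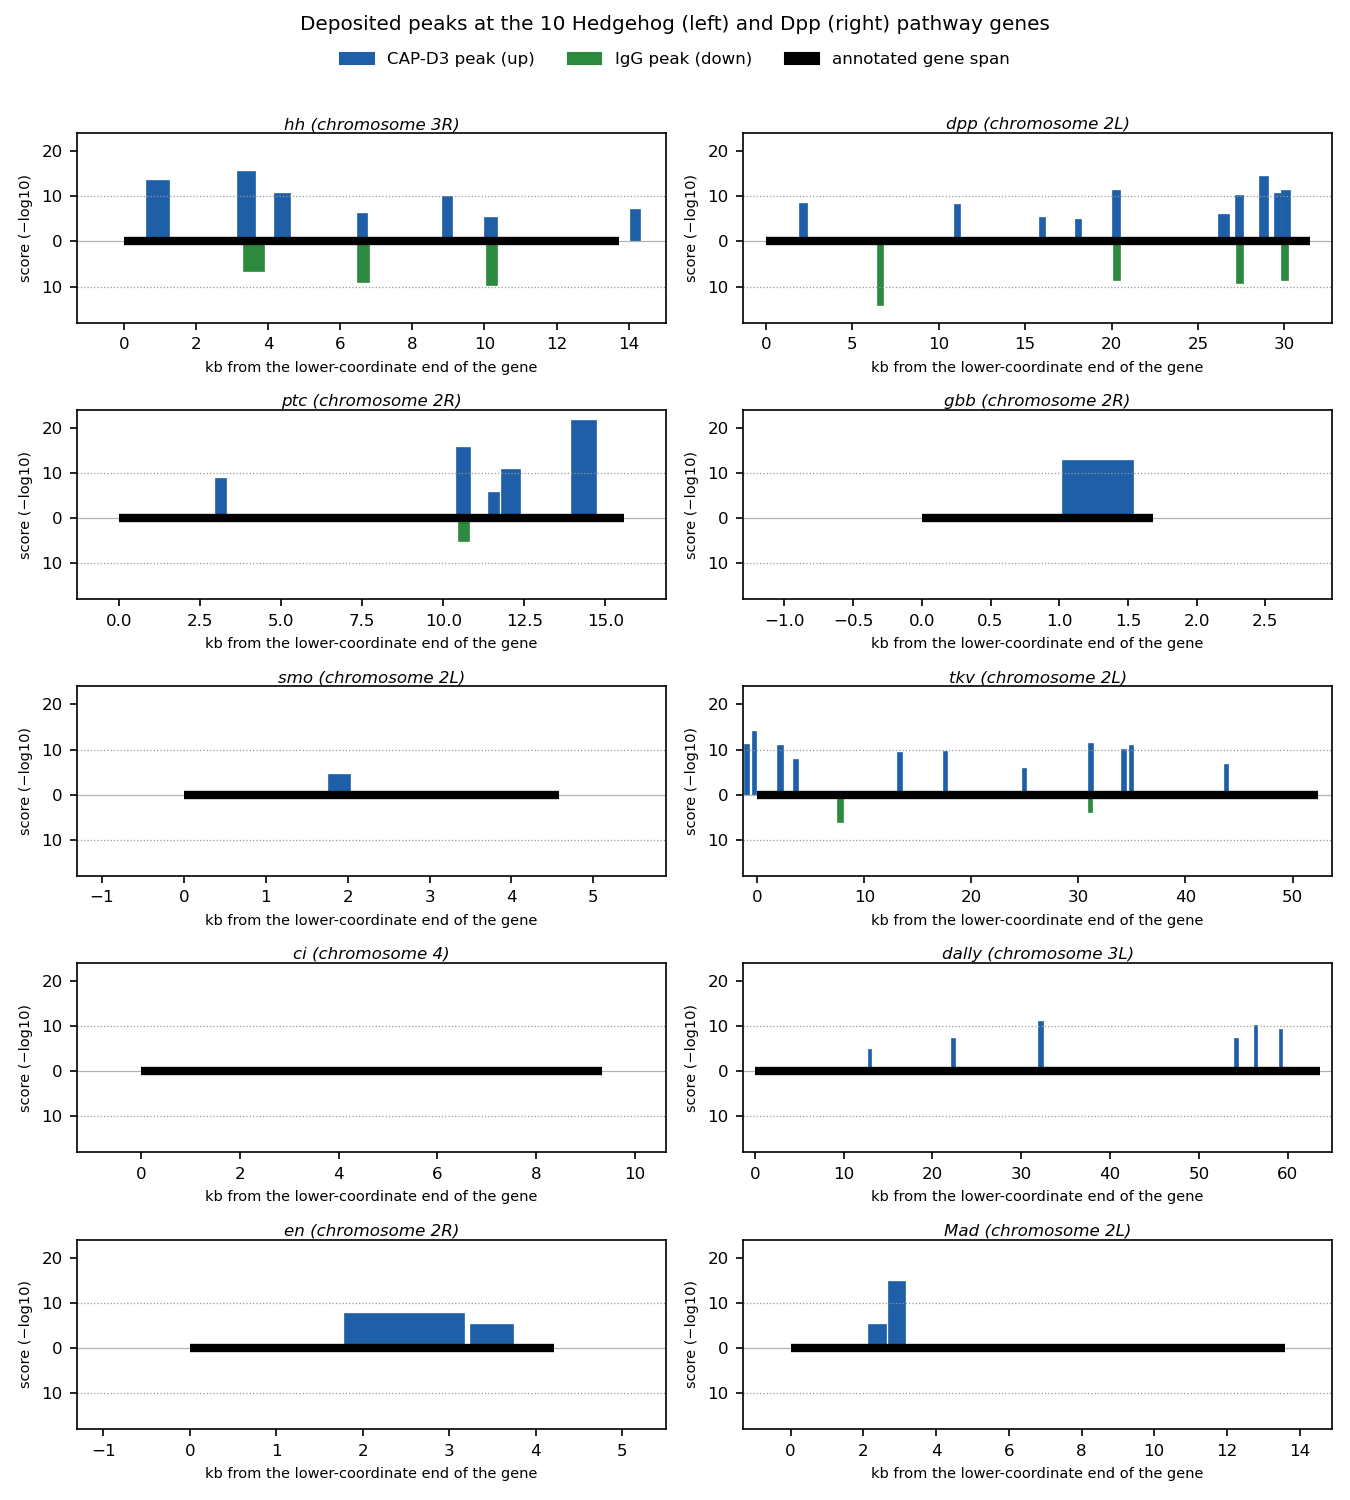
Peaks at each of the 10 genes, with the distance in kb from the lower-coordinate end of the gene on the x axis (a separate scale for each gene) and the score on the y axis, CAP-D3 upward in blue and IgG downward in green. Dotted lines mark a score of 10, and the black bar is the annotated gene span. CAP-D3 peaks are spread along tkv, leave a stretch of 21.7 kb free in dally, crowd toward the upper end of dpp and ptc, and are absent from ci.

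The ligand gene hh (CG4637, chromosome 3R) had the highest density of CAP-D3 peaks of the 10 genes, with 7 peaks in its window, or 4.45 per 10 kb against 2.16 over chromosome 3R. The 3 stronger peaks lay near the lower-coordinate end of the gene. They extended from 23128815 to 23129406 with a score of 13.30, from 23131342 to 23131810 with a score of 15.40, and from 23132366 to 23132778 with a score of 10.47, and started 0.646, 3.17 and 4.20 kb from that end. The other 4 peaks had scores of 6.17, 9.93, 5.20 and 7.01 in the order of their positions. The last of these, from 23142244 to 23142499, lay outside the gene, 338 bp past its upper end. Among the 200 genes nearest to hh in length, the median was 3 CAP-D3 peaks, and 9.5% had at least 7.

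IgG peaks were also frequent at hh. The 3 IgG peaks had scores of 6.60, 8.92 and 9.58, and each overlapped a CAP-D3 peak, those with scores of 15.40, 6.17 and 5.20, respectively. The peaks shared 329, 250 and 257 bp. Among the 200 genes of similar length, 4.5% had at least 3 IgG peaks. At hh, the CAP-D3 peaks and the IgG peaks were thus both more numerous than at most genes of this length, and the part of what IgG also recovers in the CAP-D3 count was not tested. The strongest CAP-D3 peak of hh that overlapped no IgG peak was the one nearest to the lower-coordinate end, with a score of 13.30.

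The ligand gene dpp (CG9885, 2L) had 10 CAP-D3 peaks, all inside its span of 31.5 kb, which is 2.99 per 10 kb against 1.74 over 2L. Of these, 5 were crowded into 4108 bp near the upper end of the gene, from 2454608 to 2458715. Their scores were 5.89, 10.18, 14.28, 10.51 and 11.16 in the order of their positions, so that 4 of the 5 stronger peaks of dpp lay there. In the whole list, 1.74% of 22035 runs of 5 consecutive CAP-D3 peaks were as short or shorter, a comparison chosen after the crowding had been seen. The remaining stronger peak of dpp, from 2448464 to 2448889, had a score of 11.18. The other 4 peaks, all at lower coordinates than these, were weaker, with scores of 8.20, 7.97, 5.25 and 4.65. The median for 200 genes of similar length was 6 CAP-D3 peaks, and 21% had at least 10.

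The IgG list held 4 peaks at dpp, more than at any other of the 10 genes, and 8.5% of the genes of similar length had at least as many. Of these, 3 overlapped CAP-D3 peaks with scores of 11.18, 10.18 and 11.16, sharing 388, 355 and 361 bp. The fourth, from 2434880 to 2435130, had the highest score of any IgG peak at the 10 genes, 14.08, and overlapped no CAP-D3 peak. The strongest CAP-D3 peak at dpp, from 2456942 to 2457432 with a score of 14.28, was free of IgG overlap, although it lay among peaks that were not.

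The ligand gene gbb (CG5562, 2R), with a span of 1.69 kb, had 1 CAP-D3 peak, which extended from 23852592 to 23853100 and had a score of 12.70. This 509 bp peak lay inside the gene, and 21.0% of the CAP-D3 list had a higher score. One or more CAP-D3 peaks were present at 55% of the genes of similar length, so that a single peak is common for such a window. No IgG peak was found at gbb, and the nearest one was 49.6 kb away. The window of gbb also contained parts of the neighboring genes ytr, bgcn and asRNA:CR45928, but the peak touched none of them.

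Among the receptor genes, ptc (CG2411, 2R) had the strongest CAP-D3 peak of all 10 genes. It extended from 8663637 to 8664353, was 717 bp long and had a score of 21.44, which ranks 341 among the 22108 CAP-D3 peaks. It lay inside ptc, 870 bp from the upper end of the gene, and overlapped no IgG peak. The other CAP-D3 peaks of ptc had scores of 8.60, 15.50, 5.54 and 10.60 in the order of their positions. The one at 15.50, from 8660087 to 8660477, contained the only IgG peak of ptc, which had a score of 5.15 and shared 292 bp with it. Hence, 4 of the 5 CAP-D3 peaks lay in the stretch from 10.4 kb to the upper end of this 15.6 kb gene, and the remaining peak was separated from them by 7145 bp. Of the 200 genes of similar length, 28% had at least 5 CAP-D3 peaks, with a median of 3. At least 1 IgG peak was found at 39% of these 200 genes.

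At smo (CG11561, 2L), which encodes the signal transducer controlled by PTC, there was 1 CAP-D3 peak, from 279360 to 279615. Its score of 4.36 was the lowest of the 45, and it ranks 21002 among the 22108 CAP-D3 peaks. At least 1 CAP-D3 peak was found at 76.5% of the genes of similar length, with a median of 2. No IgG peak was found at smo.

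The type I receptor gene tkv (CG14026, 2L) is 52.4 kb long and had 11 CAP-D3 peaks, the most of the 10 genes with 1000 bp added to the spans, and 2 IgG peaks. Within the spans alone, tkv had 9 and dpp 10. The strongest, from 5218565 to 5218880 with a score of 13.93, and another from 5217892 to 5218188 with a score of 11.05 lay outside tkv at its lower end. Both overlapped the neighboring gene TpnC25D, a troponin C gene, and cannot be assigned to tkv by position alone. Within tkv, the stronger peaks had scores of 10.81, 11.16 and 10.84, and a peak with a score of 9.86 lay 336 bp from the last of these. The other 5 peaks had scores from 5.79 to 9.41, and the one with 5.79 overlapped the pseudogene CR14033.

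Relative to its length, tkv was not far from other genes, since 36% of the 200 genes of similar length had at least 11 CAP-D3 peaks and their median was 8. The peaks inside the span were scattered, with the longest stretch between neighboring peaks being 9.34 kb. Only 1 of the 11 overlapped an IgG peak, namely the one from 5250000 to 5250384 with a score of 11.16, which shared 268 bp with an IgG peak with a score of 3.74. The other IgG peak of tkv, with a score of 5.98, overlapped no CAP-D3 peak. At least 2 IgG peaks were present at 45.5% of the genes of similar length.

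The co-receptor gene dally (CG4974, 3L) is the longest of the 10 genes, at 63.7 kb, and its 6 CAP-D3 peaks corresponded to 0.913 per 10 kb, lower than the 1.73 over 3L. The scores were 4.78, 7.07, 10.83, 7.19, 9.95 and 9.07 in the order of their positions. Only the peak from 8859517 to 8859931, near the middle of the gene, reached a score of 10. A stretch of 21.7 kb without a CAP-D3 peak followed the strongest peak, whereas the last 3 peaks were separated by 1.97 and 2.56 kb. Among genes of similar length, 65% had at least 6 CAP-D3 peaks and the median was 9. No IgG peak was found at dally, whereas 61.5% of the genes of similar length had at least 1.

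The transcription factor gene ci (CG2125) lies on chromosome 4 and was the only one of the 10 without any CAP-D3 or IgG peak. The nearest CAP-D3 peak was 88.6 kb away, from 145604 to 146112, with a score of 9.35. Chromosome 4 was poor in peaks, since the CAP-D3 list held 25 peaks there, or 0.190 per 10 kb, and the IgG list 4. Only 16.7% of the 114 genes on chromosome 4 had a CAP-D3 peak in their windows, so the absence of peaks at ci does not distinguish it from most genes of that chromosome.

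The en gene (CG9015, 2R), which encodes the homeodomain protein of posterior cells, had 2 CAP-D3 peaks and no IgG peak. One of them, from 11525801 to 11527181, was 1381 bp long, the longest of the 45, and only 0.362% of the CAP-D3 list was longer, but its score was 7.61. The other, from 11527261 to 11527745, had a score of 5.01 and was separated from the first by 79 bp. Together they covered 30.1% of the window, the largest share among the 10 genes, although neither reached a score of 10. The number of peaks was ordinary, since 48% of the genes of similar length had at least 2.

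At Mad (CG12399, 2L), whose product carries the Dpp signal to the nucleus, there were 2 CAP-D3 peaks, 106 bp apart. The stronger extended from 3148775 to 3149199 with a score of 14.65, and the other from 3148219 to 3148668 with a score of 5. The remaining 10.4 kb of the gene toward its upper end held no CAP-D3 peak. The median for genes of similar length was also 2, and 64.5% had at least as many. The nearest IgG peak was 75.4 kb from the gene, so that the stronger peak of Mad, like that of gbb, stood far from any IgG peak.

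**Figure D2:**
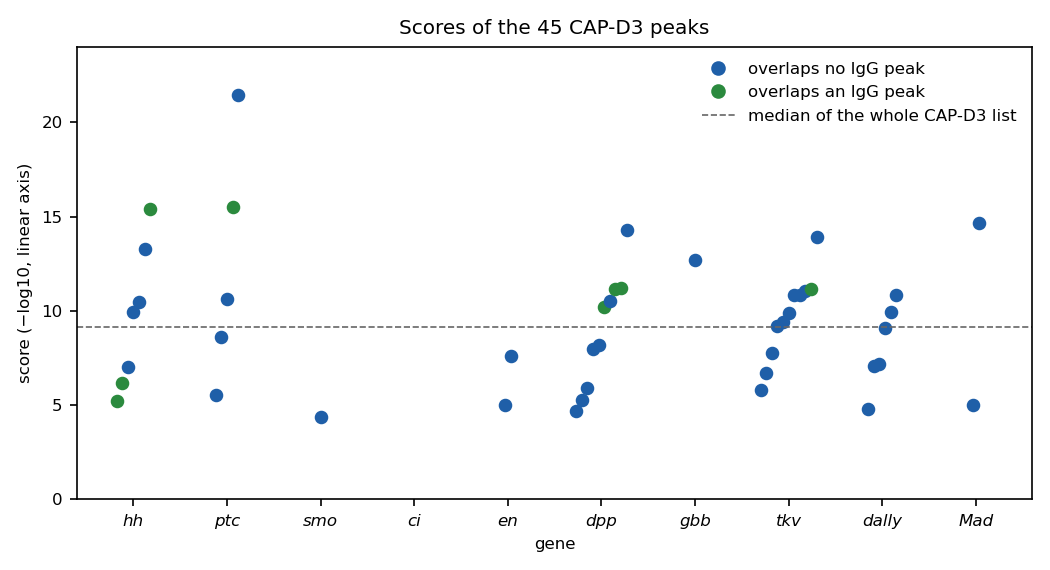
Score (−log10, linear axis) of each of the 45 CAP-D3 peaks by gene, with the 8 that overlap an IgG peak in green, the others in blue, and the median of the whole CAP-D3 list (9.16) as a dashed line. The highest score is 21.44 at ptc, en and smo have no peak above the median of the list, and ci has no peak.

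The scores of the 45 CAP-D3 peaks were like those of the whole list. They ranged from 4.36 to 21.44 with a median of 9.41, and 19 of them reached a score of 10, or 42.2% (95% Wilson interval 29.0 to 56.7%, counting error only), against 41.9% of the list. The median length was 356 bp against 324 bp in the list. The peak of ptc was the only one with a score above 20, and 2.33% of the list reached 20.

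Overlap with IgG was uneven among the genes. In total, 8 of the 45 CAP-D3 peaks overlapped an IgG peak, a share of 17.8% (9.29 to 31.3%), and 13.9% (13.5 to 14.4%) of the whole CAP-D3 list did. The 8 peaks lay at hh and dpp, with 3 each, and at ptc and tkv, with 1 each. Their scores had a median of 11.16, and those of the 37 peaks without overlap had a median of 9.07. Of the 19 stronger peaks, 6 overlapped an IgG peak, or 31.6% (15.4 to 54.0%), and in the list 16.8% did, which lies inside that interval. The interval takes peaks to be independent, although all 3 of dpp were among the 6, so this is no test of a difference. The IgG peaks that were overlapped all had scores below 10. An overlap with stronger IgG peaks was thus found for 0 of 45 peaks, which allows a share of up to 6.67% when 3 peaks are taken as the limit of a count of 0 (the upper Wilson limit is 7.87%), and in the list the share was 2.75%. The other way round, 8 of the 10 IgG peaks overlapped a CAP-D3 peak, and 79.2% of all IgG peaks did. The 13 stronger peaks that overlapped no IgG peak were divided among hh, ptc, dpp, gbb, tkv, dally and Mad.

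**Figure D3:**
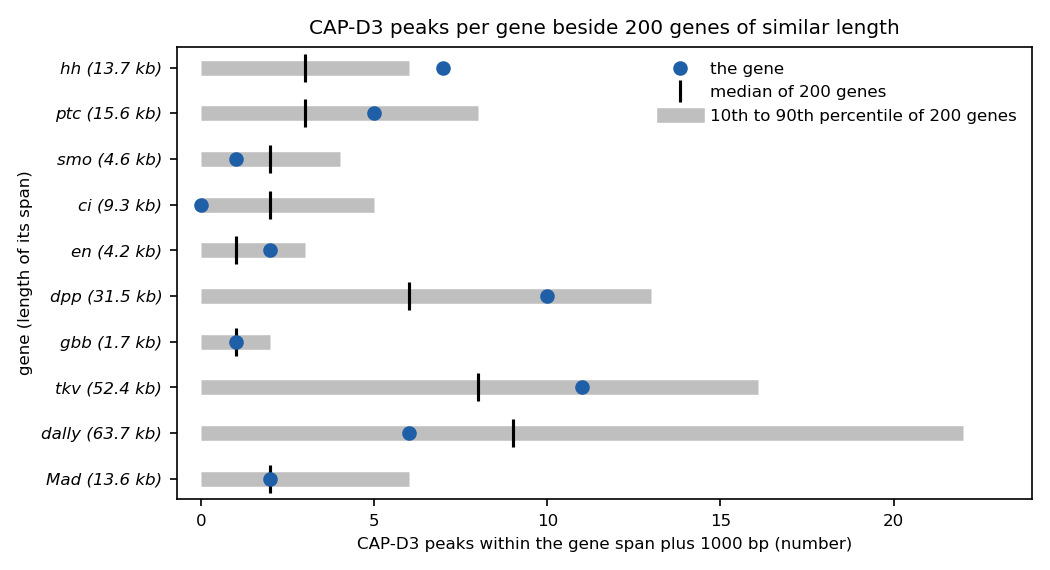
Number of CAP-D3 peaks at each of the 10 genes (blue points), with the median (black tick) and the 10th to 90th percentile (grey bar) of the 200 genes nearest to it in length. The gene hh, with 7 peaks, lies beyond the grey bar, which ends at 6, and the other 9 genes lie within theirs.

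Set beside genes of similar length, the 10 genes had no common direction. The number of CAP-D3 peaks was above the median of the 200 genes nearest in length for 5 genes (hh, ptc, en, dpp and tkv), below it for 3 (smo, ci and dally) and equal to it for 2 (gbb and Mad). The share of such genes with at least as many peaks ranged from 9.5% for hh to 100% for ci. The genes of similar length came from all 6 chromosomes, and X held 0.434 CAP-D3 peaks per 10 kb. When they were taken from the same chromosome alone, the shares were 15.5% for hh, 45% for ptc, 60% for en, 23.5% for dpp and 32% for tkv. Thus, en no longer exceeded the median. For smo, ci, dally, gbb and Mad, the shares were 73.5%, 100%, 64.6%, 67% and 74%. The median share over the 10 genes was 62.3% in this comparison, against 51.5% with genes from all 6 chromosomes.

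Other genes of the pathways were taken from a list of 42, of which 16 act in HH signaling, 22 in Dpp signaling and 4 in the related activin branch. This list was chosen with earlier results of these data known. At least 1 CAP-D3 peak was found at 31 of the 42 genes, or 73.8% against 55.7% of all annotated genes, and at least 1 with a score of 10 or more at 22, or 52.4% against 33.1%. The lengths of the genes are not taken into account in these shares. The list had 119 different CAP-D3 peaks, with 2 of them counted at both tok and tld, which are neighbors. IgG peaks lay at 8 of the 42 genes, against 14.2% of all genes, again without regard to length. The number of CAP-D3 peaks was above the median of genes of similar length for 18 genes, below it for 17 and equal to it for 7. For the 29 genes on 2L, 2R, 3L and 3R it was above for 18, below for 7 and equal for 4, and for the 13 genes on X and 4 it was above for 0, below for 10 and equal for 3. The genes of similar length came from all 6 chromosomes in this comparison.

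The highest-scoring CAP-D3 peak of the 42 genes lay in cos, which encodes the kinesin-like scaffold Costal 2 of the HH pathway, on 2R from 7383318 to 7383861, with a score of 23.16. The next, with a score of 22.44, was at rasp, the acyltransferase that modifies HH, on 3L from 3164683 to 3165002, but it overlapped the neighboring gene Asciz. It was followed by a peak with a score of 19.32 in ihog, an HH co-receptor gene, by one with 19.05 in Dad, which encodes the inhibitory SMAD of the Dpp pathway, and by one with 18.99 in inv, the paralog and neighbor of en. None of these 5 peaks overlapped an IgG peak. With a span of 35.2 kb, inv had 9 CAP-D3 peaks, 3 of them with a score of at least 10, and 2 IgG peaks, and 2 of its CAP-D3 peaks overlapped IgG. Of the 200 genes nearest to inv in length, 33.5% had at least 9 CAP-D3 peaks.

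No CAP-D3 peak was found at 11 of the 42 genes. These were the HH pathway genes Su(fu), shf, CkIalpha and sgg, the Dpp pathway genes brk, sog, tsg, cv and mav, and the activin branch genes Smox and Actbeta. Of the 11, only Su(fu), on 3R, lies on one of the large autosomal arms, and the others lie on X or chromosome 4, as does ci. At least 1 peak was found at 28 of the 29 genes on 2L, 2R, 3L and 3R and at 3 of the 13 genes on X and 4, and the shares over all annotated genes were 62.2% and 21.7%, respectively. These shares do not take the lengths of the genes into account, and longer windows hold more peaks. The pathway genes without peaks thus lay, apart from Su(fu), on chromosomes where most genes had none.

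**Figure D4:**
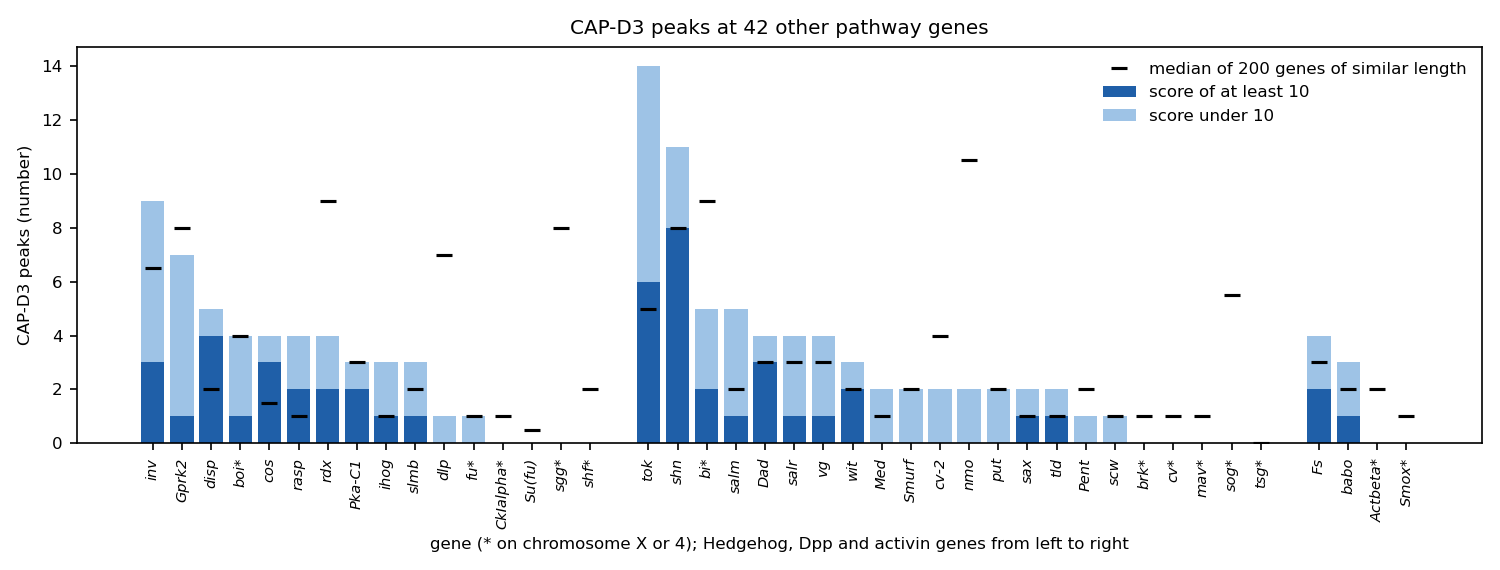
Number of CAP-D3 peaks at 42 other genes of the HH, Dpp and activin pathways, with peaks with a score of at least 10 in dark blue and weaker peaks in light blue, and the median of 200 genes of similar length as a black tick. Asterisks mark genes on X or chromosome 4, which include 10 of the 11 genes without a peak, and tok has the most peaks, 14.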

How the data were processed

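The authors performed ChIP-seq for CAP-D3 and IgG, with input chromatin, in S2R+ cells. The submitters' processing notes name CASAVA 1.4, Trim Galore 0.3.7, cutadapt 1.8, FastQC 0.11.3, Bowtie 1.0.0 and MACS2 2.0.9. The authors deposited 2 peak lists, each against input, whose score is −log10 of a p-value or q-value (the sources used here do not say which). How the experiments were combined and the genome build are not given in the sources used here. Gene names and spans came from the RefSeq annotation of Release 6 plus ISO1 MT, whose last genes on 3R (32.1 Mb) and the other large arms lie close to the last peaks (32.0 Mb on 3R), and gene coordinates are not printed.

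Peaks were assigned by overlap of at least 1 bp with a gene span plus 1000 bp on both sides. Starts were converted to count from 1. Each gene was set beside the 100 genes just shorter or equal and the 100 just longer. Wilson intervals (95%) cover counting error alone and take peaks to be independent. Sequence, exons and strand were not used, so the planned motif and exon classes were not run. The 10 genes and the list of 42 were chosen with earlier results of these data known. By rule, all peaks of the 10 genes are described, and of the 42 genes, those without a peak and the 5 with the highest score are named. Alternatives were the score minimum, the bases added, the overlap and the genes compared. Counting was tested on simulated data. Computations were made in Python 3.11.15 with scipy 1.17.1, pandas 2.3.3 and numpy 2.4.6, and plots with matplotlib 3.10.9.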

Additional observations from a re-analysis of the deposited data

How the results depend on the processing

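The score minimum moved the counts most, as its construction requires. With a score of at least 10, the 10 genes held 19 CAP-D3 peaks and 1 IgG peak, and with a score of at least 20, 1 CAP-D3 peak, at 1 gene, and 0 IgG peaks, against 45 and 10 with every deposited peak. Among the CAP-D3 peaks, the share overlapping IgG was 0% when IgG peaks needed a score of at least 10, with all 45 or with the 19 stronger CAP-D3 peaks, and 17.8% when 50% of the CAP-D3 peak had to be covered. Windows without added bases held 42 CAP-D3 peaks and those with 5000 bp added held 65. The median share of genes of similar length with at least as many CAP-D3 peaks was 51.5%, and 43.2 to 62.3% in the alternatives. Of 100 values for single genes under alternatives, 34 moved. No paired analysis was possible because the deposited lists, 1 per antibody, hold no values of single samples, and no replicate could be left out for that reason. Depth is unknown, and comparisons between the lists are limited by it.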

Other observations

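Some CAP-D3 peaks at these genes lay so close to each other that they may be parts of a single enriched region. The gap was 65 bp between the last peaks of dpp, 79 bp at en, 89 bp at ptc and 106 bp at Mad. These are 4 of the 36 gaps between neighboring peaks at the 10 genes, or 11.1%, and in the whole list 4.39% of 22053 gaps were of 106 bp or less. The limit of 106 bp was chosen after the gaps had been seen. The 36 gaps lie within the windows of single genes, whereas those of the whole list also cross the stretches between genes. The shares are therefore not of like gaps. Counted as joined, en and Mad would each have 1 peak.

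More peaks lay in the surroundings of hh. With 5000 bp added on both sides instead of 1000 bp, the CAP-D3 peaks at hh numbered 12 instead of 7 and the IgG peaks 4 instead of 3. For gbb the same step raised the number of CAP-D3 peaks from 1 to 4, and for ci it stayed at 0. The number rose from 10 to 13 at dpp and from 11 to 14 at tkv, and stayed at 2 at Mad. Genes of similar length were not counted with the wider windows.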
